A study of Mus musculus with 10 samples.

Results

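The protocadherin genes are described here as 36 protein-coding genes, chosen because their symbol in the GENCODE annotation of the mouse genome NCBIM37 (mm9) begins with Pcdh, out of 22380 protein-coding genes. Of these, 24 belonged to the Pcdha, Pcdhb and Pcdhg clusters, with 2 entries for Pcdha, 21 for Pcdhb and 1 for Pcdhg, and 12 were non-clustered. The annotation joins most Pcdha transcripts under Pcdha11 and most Pcdhg transcripts under Pcdhgc5, each with 10 transcript starts, so the number of entries understates the number of first exons in these clusters. ChIP-seq for H3K27me3, the trimethyl mark that Polycomb repressive complex 2 (PRC2) places on histone H3, covered a parental mouse lymphoma line and 4 lines derived from it. All 5 lines came from B lymphoma cells of a C57BL/6J mouse, carried the Eμ-Myc transgene, which drives Myc from the immunoglobulin heavy-chain enhancer, and were Cdkn2a-/-. The resistant lines had been selected with rising doses of the alkylating agent mafosfamide, R100 with 100 nM to day 10, R500 with 500 nM to day 18, R1000 with 1000 nM to day 23 and R4000 with 4000 nM to day 37. The last day is that of the study's culture scheme, and its methods give the whole escalation a slightly shorter time. The cells used for ChIP-seq were grown without the drug. Every line descended from 1 parental culture. The study made replicate ChIP-seq profiles, but 1 peak list was analysed here per line and the sources do not say whether it pools them. The spread between replicates therefore could not be measured from these lists, and no difference between lines was tested.

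Protocadherins are cell adhesion proteins of the cadherin superfamily, anchored in the membrane by a single transmembrane segment, and are best known from the nervous system. In the clustered genes, each first exon has its own promoter, and neurons choose among these promoters with the help of CTCF and cohesin, which gives single neurons different sets of surface molecules. The non-clustered genes include the δ-protocadherins, many of which act in neural development, and some of their promoters are rich in CpG dinucleotides, a class of promoter at which PRC2 is known to act in cells that do not use the gene.

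Where 5 values stand together, they run from the parental line through R100, R500 and R1000 to R4000. The peak lists held 10778, 25180, 21888, 9595 and 6820 distinct peaks. These peaks covered 0.0618, 0.191, 0.172, 0.0611 and 0.0407% of the sequence of the autosomes and chromosome X. The lists gave positions on a grid of 50 bp and neither heights nor read counts, so the depth is unknown and covered bases measure the extent of called enrichment, not the level of the mark. No list covered any base of the promoter of Cdkn2a, the gene targeted in all lines. The same held for 65.1% of all protein-coding promoters. The lists hold no expression values, so the labelled cell type could not be checked against transcripts.

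A promoter was taken as the 2 kb on each side of the transcription start site (TSS) at the gene's 5′ end, and it was called when peaks covered at least 150 bp of it, the equivalent of 3 bins of the grid. Protocadherin promoters were called rarely, and those of the clustered genes in no line. In the parental line 1 of 36 was called (2.78%, 95% Wilson interval 0.492 to 14.2), compared with 5.25% of all protein-coding genes. In R100 the count was 2 (5.56%, 1.54 to 18.1) compared with 17.4%, and in R500 it was 1 (2.78%, 0.492 to 14.2) compared with 13.3%. The share of all promoters called was thus higher in R100 and R500 than in the parental line, while the number of protocadherins called stayed at 1 or 2. In R1000 the count was again 2 (5.56%, 1.54 to 18.1) compared with 6.92%, and in R4000 it was 0 of 36 (0 to 9.64) compared with 5.50%. In each line the share of all genes lay within the interval of the 36 protocadherins, so none of these shares of called promoters set the family apart. This held for the minimum of 150 bp only. Promoters with any covered base numbered 1, 3, 2, 2 and 1 of 36, compared with 8.30, 28.2, 21.4, 12.6 and 11.1% of all genes. For 2 of 36, as in R500, the interval of 1.54 to 18.1% lay below the 21.4% of all genes. The intervals cover counting of genes only, and the clustered genes are neighbours on 1 chromosome and not independent draws.

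Over the lines together, 33 of 36 protocadherins (91.7%) were called in no line, compared with 79.9% of all protein-coding genes, and none was called in all 5 lines, compared with 3.17%. Pcdh12 alone was called in R100 or R500 without a parental call, a pattern held by 14.3% of all genes. With gene bodies counted too, 32 of 36 (88.9%) had no covered base in promoter or gene in any list, compared with 59.3%. The union of the 36 genes, 4.28 Mb, was covered over 250, 1900, 1950, 600 and 100 bp, or 0.00584, 0.0444, 0.0455, 0.0140 and 0.00234%. At least 150 bp of the gene body were covered in 1, 1, 1, 1 and 0 of the 36 genes, compared with 5.67, 17.7, 13.7, 6.68 and 5.18% of all protein-coding genes. For 1 of 36 the interval is 0.492 to 14.2%, and the share of all genes was above it in R100. The union of all protein-coding genes was covered over 0.0835, 0.306, 0.263, 0.0941 and 0.0652%. Covered bases in the family were thus a smaller share of gene length in each list, and all but 150 bp of those in R100, and all bases in the other lists, lay in Pcdh1. Much of the length lay in a few long genes. Pcdh15, Pcdh9, Pcdh11x and Pcdh7 spanned 1550393, 873221, 620361 and 411331 bp, and no base of these genes was covered in any list.

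**Figure D1:**
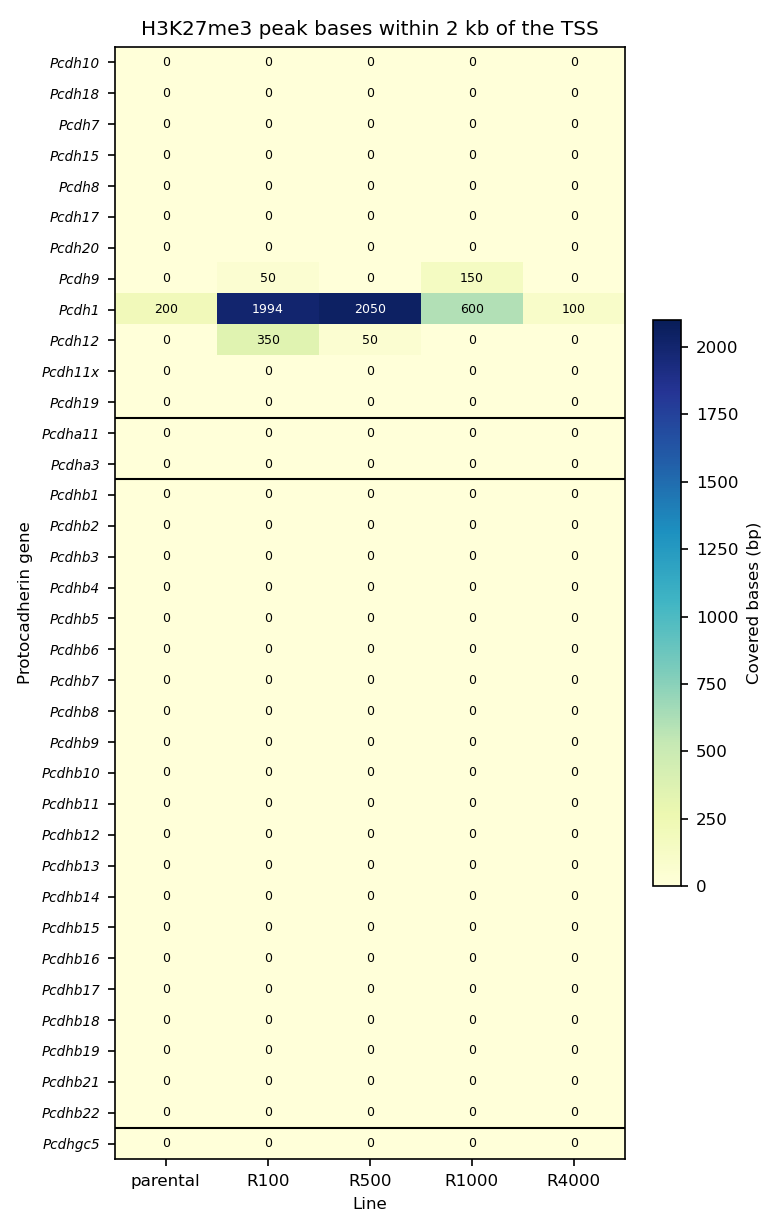
Bases covered by H3K27me3 peaks within 2 kb of the TSS (bp, colour and printed number) for each of the 36 protocadherin genes (rows, with lines between non-clustered, Pcdha, Pcdhb and Pcdhg genes) in each line (columns). Only Pcdh9, Pcdh1 and Pcdh12 have any covered base, and Pcdh1 reaches 1994 bp in R100 and 2050 bp in R500.

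Besides Pcdh1 and Pcdh12, Pcdh9, a δ1-protocadherin expressed in brain, was the only gene with peaks in its promoter. It lies on the minus strand of chromosome 14, from 93414731 to 94287951. Its promoter held 50 bp in R100, 150 bp in R1000, and 0 bp in the parental, R500 and R4000 lists. The R1000 value sat exactly at the limit for a call, and no other line reached it. The R100 and R1000 peaks adjoined without sharing a base, 1500 and 1550 bp upstream of the TSS, in sequence that the annotation gives to no gene. Each of the 2 lists held 1 further peak of 50 bp, 2200 bp upstream in R100 and 2300 bp upstream in R1000, just outside the promoter. Nearest peaks in the other lists were 7720 kb away in the parental line and 5157 kb away in both R500 and R4000. The window of 1 kb on each side of the TSS was poor in CpG, with 44.4% GC and an observed to expected CpG ratio of 0.256. Every Pcdh9 peak lay upstream of this window. Sequences of 3 regions follow to show how promoters of the family differ in CpG content, read 5′ to 3′ on the strand of the gene with every CG dinucleotide in capitals. They are the 300 bases around the TSS of Pcdh9 (NCBIM37, chr14:94287902-94288201, minus strand), the region its R100 and R1000 peaks span (chr14:94289451-94289650, minus strand), and, from a gene without a peak, the 300 bases around the TSS of Pcdh10 (chr3:45182070-45182369, plus strand).
Pcdh9 promoter: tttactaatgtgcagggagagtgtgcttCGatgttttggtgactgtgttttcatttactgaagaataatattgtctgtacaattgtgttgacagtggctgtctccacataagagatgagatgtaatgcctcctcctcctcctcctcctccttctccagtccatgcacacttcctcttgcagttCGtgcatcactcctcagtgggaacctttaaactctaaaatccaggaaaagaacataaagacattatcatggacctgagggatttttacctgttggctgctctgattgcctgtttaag
Pcdh9 peak region: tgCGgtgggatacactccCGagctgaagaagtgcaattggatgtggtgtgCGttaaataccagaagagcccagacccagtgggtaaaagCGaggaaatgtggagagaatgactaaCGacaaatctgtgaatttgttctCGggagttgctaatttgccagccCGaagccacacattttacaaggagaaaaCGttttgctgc
Pcdh10 promoter: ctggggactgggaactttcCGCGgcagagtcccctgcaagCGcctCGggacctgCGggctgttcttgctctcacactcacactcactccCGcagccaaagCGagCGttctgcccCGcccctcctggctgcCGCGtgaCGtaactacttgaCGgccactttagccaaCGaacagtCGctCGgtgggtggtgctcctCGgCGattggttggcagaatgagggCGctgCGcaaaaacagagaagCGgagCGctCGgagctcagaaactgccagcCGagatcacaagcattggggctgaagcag
The Pcdh9 promoter held 2 CG dinucleotides at 43.0% GC, and the 200 bp of its peak region held 8 at 47.5%. Its further peaks of 50 bp, just outside the promoter, held 3 each, at 74.0% GC in R100 and 62.0% in R1000. The Pcdh10 promoter held 24 at 62.3% and had no covered base in any list. Over the wider window of 1 kb on each side, Pcdh10 had 50.8% GC and a CpG ratio of 0.644. These genes were taken as a called one and an uncalled one and do not stand for CpG content in general, since 41.5% of CpG-rich promoters of all genes were called in some line, compared with 14.6% of the others.

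Of the other δ1-protocadherins off the Pcdh1 locus, Pcdh7 (chromosome 5) and Pcdh11x (chromosome X) had no covered base in promoter or gene in any list. Their nearest peaks in any list were 3723 and 7919 kb from the TSS. The δ2-protocadherins Pcdh8, Pcdh10, Pcdh17, Pcdh18 and Pcdh19 had no covered promoter base either. Pcdh10 has been studied as a gene silenced by DNA methylation in tumours, and its nearest peak in any list was 3636 kb away. Nearest peaks were 1466 kb away for Pcdh18, 2697 kb for Pcdh17 and 110 kb for Pcdh8, which acts at synapses and in somites. Pcdh19, the gene affected in a form of epilepsy limited mostly to females, had a single peak of 50 bp, in R4000, 2119 bp upstream of its TSS and within the lincRNA gene Gm16795. Its nearest peak in the parental list was 607 kb away, and those in R100, R500 and R1000 were 325, 1029 and 3416 kb away. Pcdh15, part of the tip link of hair cells in the inner ear, and Pcdh20 had nearest peaks at 1754 and 1055 kb. These 9 genes include 4 of the 5 CpG-rich promoters of the family.

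Pcdh1, a δ1-protocadherin known from airway epithelium and from genetic studies of asthma, held most of the covered promoter bases in the family. It lies on the minus strand of chromosome 18, from 38345569 to 38371707. Its promoter held 200 bp parentally, 1994 and 2050 bp in R100 and R500, and 600 and 100 bp in R1000 and R4000. The coverage was broad in R100 and R500, at 49.8 and 51.2% of the window, and narrow at both ends of the series, at 5.00% in the parental cells and 2.50% in R4000. The covered bases came to 9.97 times the parental number in R100, 10.2 times in R500, 3 times in R1000 and 0.500 times in R4000. Among all protein-coding genes, the share with at least as many covered bases as Pcdh1 was 4.44, 0.912, 0.809, 2.27 and 8.05%. By extent of peaks, Pcdh1 thus stood among the most covered promoters of all genes in R100 and R500. Over the whole genome the lists covered 1.63, 5.04, 4.53, 1.61 and 1.07 Mb. Depth may differ between the lists, and its part in these values was not tested.

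Peaks of all 5 lines fell just downstream of the TSS of Pcdh1. A region of 1950 bp (chr18:38369551-38371500), from 207 to 2156 bp downstream of the TSS, joined the peaks of all lists and held 200, 1600, 1700, 600 and 100 bp. It was GC-rich, at 61.7%, with 132 CpG dinucleotides and an observed to expected ratio of 0.714. Of its bases, 58 were exonic, at the end of exon 1, and the rest lay in intron 1. All of it also lay within the lincRNA gene 2010320O07Rik on the plus strand, in none of its exons. The start of this lincRNA is 2281 bp downstream of the Pcdh1 TSS. H3K27me3 over the region cannot be assigned to either gene by position.

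Within the promoter window of Pcdh1, 100% of the 200 bp of the parental line were also covered in R100, R500 and R1000, and none of them in R4000. R100 and R500 shared 1650 bp, or 82.7% of the R100 bases and 80.5% of the R500 bases. Of the R1000 bases 91.7% were covered in R100 and 91.7% in R500, and the 100 bp of R4000, in 2 peaks of 50 bp, were covered in both. No base of the 1950-bp region was covered in all 5 lists, 200 bp were covered in 4, 400 bp in 3, 850 bp in 2 and 500 bp in 1. A second region of 550 bp (chr18:38371851-38372400), upstream of the TSS, was covered over 500 bp in R100 and 350 bp in R500, and over no base in the other lines. Both flanks of the TSS were therefore covered in R100 and R500, and the downstream side alone in the other lines.

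**Figure D2:**
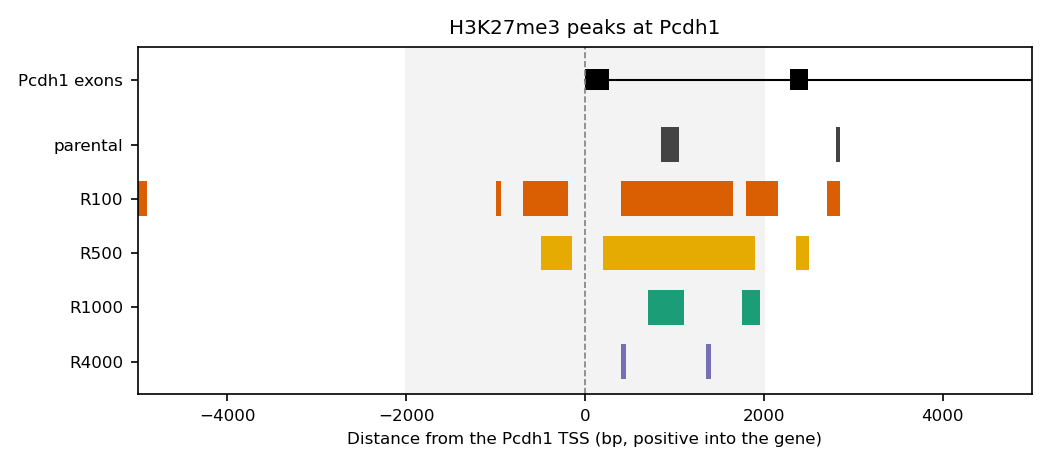
H3K27me3 peaks of each line (coloured boxes) by distance from the Pcdh1 TSS (bp, positive values into the gene), with the Pcdh1 exons on top and the promoter window shaded. The 3 widest peaks, of 1700 bp (R500), 1250 bp (R100) and 500 bp (R100), lie within the window, and R4000 has 2 peaks of 50 bp.

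Pcdh12, which encodes an adhesion protein of endothelial cells, lies near Pcdh1 on chromosome 18, from 38426746 to 38444055 on the minus strand. In its promoter R100 covered 350 bp and R500 covered 50 bp, while the parental, R1000 and R4000 lists covered 0 bp. Only R100 passed the limit for a call. Peaks of 250 and 100 bp in R100 and of 50 bp in R500 lay upstream of the TSS, in sequence that the annotation gives to no gene, and no base was covered in both lists. Its promoter was poor in CpG, with an observed to expected ratio of 0.221 at 52.3% GC, in contrast to that of Pcdh1, with 0.712 at 63.9%.

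The clustered protocadherins lie in a row on chromosome 18, and the clusters are named for the α, β and γ subfamilies. The Pcdha cluster spans 257 kb (chr18:37089939-37347311), the Pcdhb cluster 256 kb (chr18:37424652-37681073) and the Pcdhg cluster 168 kb (chr18:37833989-38001527). From the first base of Pcdha to the last of Pcdhg, over 912 kb with 132548 exonic bp, the parental, R500, R1000 and R4000 lists held no peak. R100 held 1 peak of 100 bp (chr18:37965751-37965850), in an intron of Pcdhgc5, 132 kb downstream of the gene's 5′ end. Of the 10 transcript starts of Pcdhgc5, 1 had this peak within 2 kb. None of the 11 Pcdha starts and none of the 25 Pcdhb starts had a covered base within 2 kb in any list. Pcdha11, Pcdha3, Pcdhb1, Pcdhb2, Pcdhb3 and Pcdhgc5, the first of each cluster in genome order, held 0 bp in their promoters in each line, as did every other clustered gene. The clustered genes as a group gave 0 of 24 called promoters in each line (0 to 13.8%), and the non-clustered genes 1, 2, 1, 2 and 0 of 12. The share of all genes was above that interval in R100 alone, at 17.4%, and the interval treats these neighbouring genes as independent.

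The stretch without peaks that held the clusters reached beyond them on both sides. Its longest part was 1456, 1023, 1240, 1288 and 1484 kb. The nearest peak before Pcdha was 202, 147, 170, 170 and 204 kb away in the same order, and the nearest after Pcdhg 342, 93.1, 158, 207 and 369 kb. Such stretches are common in these sparse lists. Gaps at least as long numbered 402 of 10757 in the parental list, 534 of 25158 and 433 of 21868 in R100 and R500, and 468 of 9575 and 391 of 6800 in R1000 and R4000. They held from 58.4 to 69.7% of the bases between peaks. Of 2822 windows of the clusters' length tiled over the genome, the share without a peak was 52.7, 40.7, 43.9, 51.5 and 57.3%. At 100 bp or less, the value of the clusters in R100, stood 48.2% of the windows in that list. An empty span of this length was thus common in every list.

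**Figure D3:**
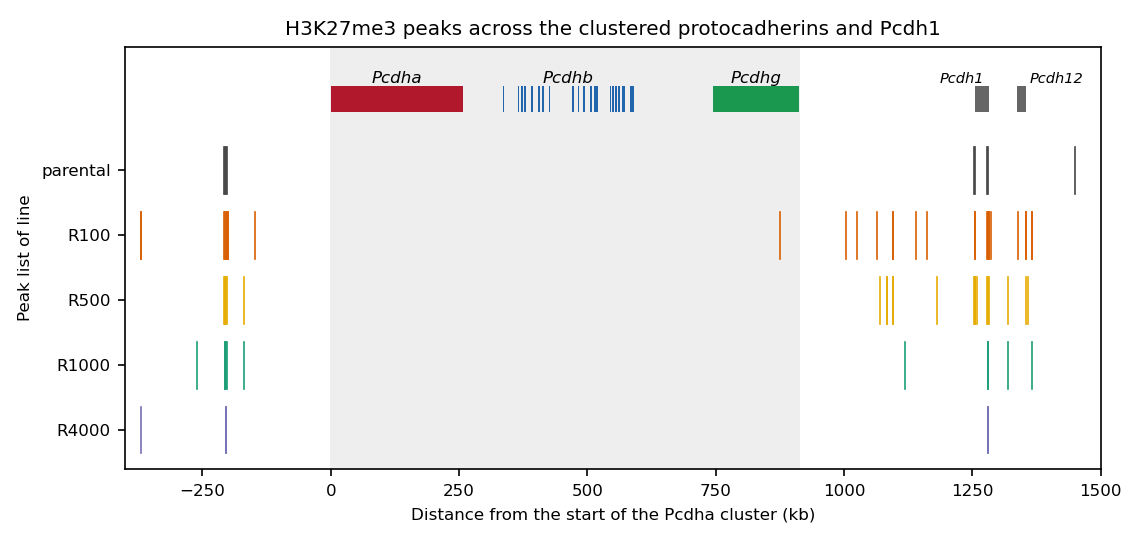
H3K27me3 peaks of each line (vertical ticks) by distance from the start of the Pcdha cluster (kb), with protocadherin genes as boxes on top and the span of the 3 clusters shaded. The shaded span holds 1 tick, in R100, and peaks lie on both sides of it, at Cd14 before it and around Pcdh1 after it.

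Genes around the clusters were called in some lines. Of 23 genes within 1 Mb before them 1, 6, 4, 2 and 3 were called, and of 13 genes within 1 Mb after them, protocadherins not counted, 0, 5, 3, 3 and 3. Over all protein-coding genes 5.25, 17.4, 13.3, 6.92 and 5.50% were called. The calls after the clusters in R500, R1000 and R4000 were those of Spry4, Arhgap26 and 9630014M24Rik, which start side by side and share their peaks, so that 1 marked place was counted 3 times. None of the 4 other protein-coding genes inside, Gm10545, Slc25a2, Taf7 and 3222401L13Rik, had a covered promoter base. Cd14, a receptor of myeloid cells for bacterial lipopolysaccharide, lies before the clusters and was called in all 5 lines, with 1600, 1911, 2061, 1661 and 1000 bp.

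A word of 50 bases, the read length of the study, occurred once in the genome, counting both strands, at 83.1% of positions in Pcdha, 87.5% in Pcdhb and 96.6% in Pcdhg. In the promoter windows the share was 86.8 to 98.7% for Pcdhb genes (median 97.1%), 90.7 to 90.8% for Pcdha, 99.6% for Pcdhgc5 and 98.7 to 100% for the non-clustered genes. Most positions of the clustered promoters could therefore have given reads with a single exact match. Matches with mismatches were not counted. The part of repeated sequence in the low coverage was not tested.

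Promoters of all genes differed in calls by CpG content, and so the same was counted for the protocadherins. CpG-rich promoters were those with at least 55% GC and an observed to expected CpG ratio of at least 0.6 within 1 kb of the TSS. They made up 4553 of all protein-coding genes, of which 13.2, 37.3, 30.5, 17.3 and 14.6% were called. The family held 5, namely Pcdh7, Pcdh15, Pcdh8, Pcdh1 and Pcdh19, and of these Pcdh1 alone was called, in all lines but R4000. Of the other 31 promoters 2 were called in any line, Pcdh12 and Pcdh9, compared with 14.6% of all such promoters, and 41.5% of all CpG-rich ones. All 24 clustered promoters fell outside the CpG-rich class, with a median GC content of 42.1% and a median CpG ratio of 0.350, compared with 51.1% and 0.468 over all protein-coding genes. The non-clustered genes had medians of 53.4% and 0.656.

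The family also sat in regions of low GC content, in which fewer promoters of all genes were called. Within 500 kb of the TSS the median GC content was 41.4% for the clustered genes (41.0 to 43.5) and 37.6% for the non-clustered (35.9 to 46.5), compared with 44.1% over all genes. Of all genes, the share called in R100 was 4.89% in the lowest of 5 nearly equal classes of regional GC, 12.4% in the next, then 20.4%, 24.1% and 25.3% in the highest. Protocadherins numbered 9, 24, 1, 2 and 0 in these classes. Of those in the lowest pair of classes, 1 was called in any line, Pcdh9 in R1000, compared with 6.14 and 14.6% of all genes there. Pcdh1 and Pcdh12, both at 46.5%, were the pair in the next to highest class. The median distance from a protocadherin TSS to the nearest peak was 678, 378, 555, 572 and 694 kb, compared with 135, 32.2, 51.5, 115 and 153 kb over all protein-coding genes. For the non-clustered genes it was 2881, 1262, 2717, 2615 and 3361 kb, and for the clustered 668, 367, 537, 562 and 680 kb. Within 500 kb lay a median of 1 other protein-coding TSS for the non-clustered genes, 28 for the clustered and 15 over all genes. These counts include other protocadherins. Over all genes the share called varied with regional GC content, and distances were not counted by class of GC content. The part of GC content or gene density in the low number of called protocadherins was not tested.

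**Figure D4:**
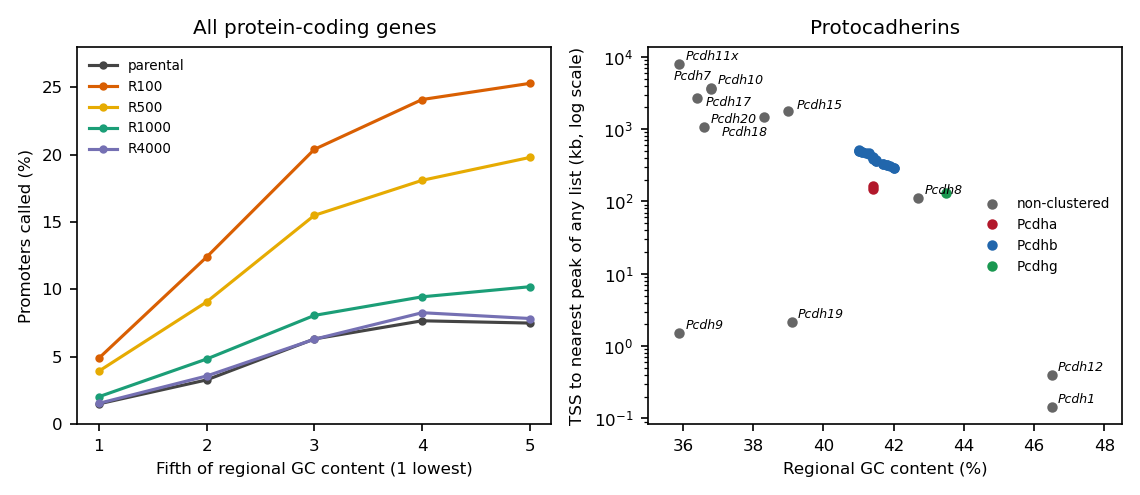
Left, percentage of all protein-coding promoters called in each line (coloured lines) by class of GC content within 500 kb of the TSS (5 classes of nearly equal size), which rises from 4.89 to 25.3% in R100. Right, distance from each protocadherin TSS to the nearest peak of any list (kb, log scale) against regional GC content (%), where Pcdh1 and Pcdh12 lie at 46.5% GC and Pcdh11x at 35.9% has its nearest peak 7919 kb away.

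Other gene lists were counted in the same way, beside the 5.25, 17.4, 13.3, 6.92 and 5.50% of all protein-coding genes and the 3.17% called in all 5 lines. Of 23 cadherins, 0, 5, 4, 1 and 0 were called (0, 21.7, 17.4, 4.35 and 0%), and none in all 5. Of 8 atypical cadherins 3, 3, 4, 2 and 1 were called (37.5, 37.5, 50, 25 and 12.5%), with Celsr1, of the planar polarity pathway, in all 5 lines at 250, 1500, 1150, 300 and 200 bp. Its order of values, highest in R100 and R500, was that of Pcdh1 apart from the swap of those lines. Of 12 regulators of the clustered genes, among them CTCF and the cohesin subunits, 1, 3, 4, 2 and 2 were called (8.33, 25, 33.3, 16.7 and 16.7%). Wapal, which releases cohesin from DNA, was called in all 5 lines at 437, 550, 300, 500 and 200 bp. In the parental, R1000 and R4000 lists no base of the Wapal gene itself was covered, nor of Celsr1 in the parental and R4000 lists. Of 9 partners of protocadherin tails 2, 4, 2, 2 and 2 were called (22.2, 44.4, 22.2, 22.2 and 22.2%). Among these Wasf1 held 600, 850, 900, 700 and 700 bp and Nckap1, another part of the WAVE complex that controls actin, 1487, 1300, 1887, 1187 and 600 bp. Of 4 T cell and 3 neuron markers none was called in any line, and of 3 myeloid markers 1, Cd14, was called in every line. CpG-rich promoters made up 75.0% of the regulators, 62.5% of the atypical cadherins, 55.6% of the tail partners and 30.4% of the cadherins. Over all genes they made up 20.3%, and of all CpG-rich promoters 13.2, 37.3, 30.5, 17.3 and 14.6% were called. These lists were chosen by symbol and are small, so their intervals are wide, and no difference from the protocadherins was tested.

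**Figure D5:**
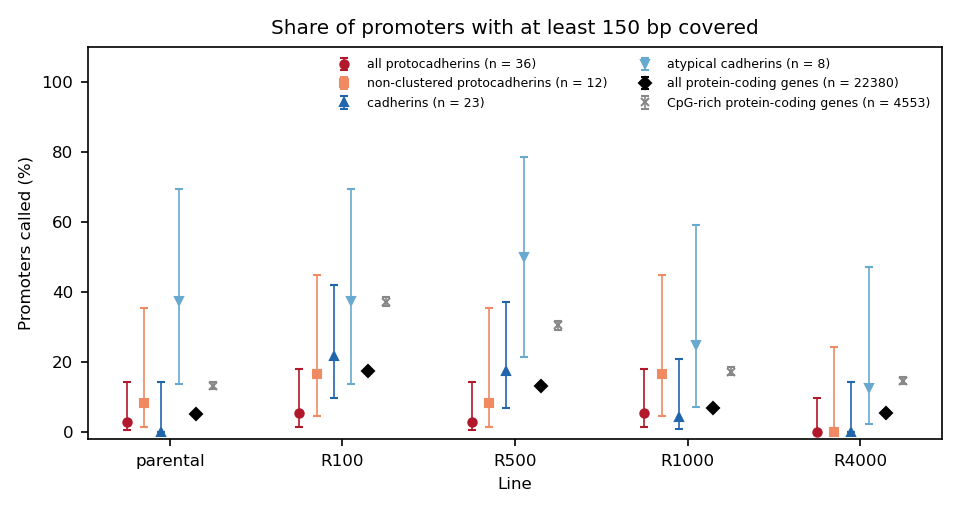
Percentage of promoters called in each line (points, with 95% Wilson intervals that cover counting of genes only) for the protocadherins, the non-clustered protocadherins, cadherins, atypical cadherins, all protein-coding genes and CpG-rich protein-coding genes. The protocadherins lie at 0 to 5.56% in each line, and all protein-coding genes reach 17.4% in R100.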

How the data were processed

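H3K27me3 ChIP-seq was used from 5 samples, 1 per line, and the RRBS samples were not analysed here. The authors deposited intervals of enrichment over input, called with a Poisson test, as positions in base pairs (chromosome, start, end) in mm9. The submitters' processing notes name Bowtie. Whether the study's replicates were pooled is not given in the sources used here. Since R100 and R500 list every interval 2 times, duplicates were removed. Samples were grouped by their titles.

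Covered bases were counted in Python 3.11.15 with numpy 2.4.6 against GENCODE genes of NCBIM37, and in a check on simulated data 0 of 2000 windows differed from a base-by-base count. Sequence was read with pysam 0.24.0, Wilson intervals came from scipy 1.17.1 and figures from matplotlib 3.10.9. Alternatives changed the window, the minimum, the peaks, the TSS, the chromosomes and the part of the gene or cluster counted. Named were all non-clustered genes, the 3 genes of each cluster with most covered promoter bases (ties by genome order), and genes of other lists called in all 5 lines. Neighbours, genes inside the clusters and T cell, neuron and myeloid markers were added for context, and the B cell markers are not reported here. The members and lists were chosen with earlier results of these data known. Depth is unknown, and with 1 list per line no test was made.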

Additional observations from a re-analysis of the deposited data

Results flagged for a closer look

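At the Pcdh1 promoter the resistant lines moved in opposite directions from the parental line, and the difference was not tested. Compared with the parental 200 bp, R100 had 1794 bp more, R500 had 1850 bp more and R1000 had 400 bp more, whereas the value fell by 100 bp in R4000. Over protocadherin genes, 250 bp were covered parentally and 100 bp in R4000. With peaks within 1000 bp joined these became 250 and 1000 bp, so the direction in R4000 depended on the processing. The whole R4000 list was also shorter, covering 1.07 Mb compared with 1.63 Mb in the parental list. Each line has 1 list.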

How the results depend on the processing

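Of 108 alternative values for 17 results, 74 stayed within the limits set for a change. A count stayed within them up to 1.5 times the main count, and covered bases within the 95% Wilson interval of the main value, counted in bins of 50 bp. Under every setting run, at most 3 protocadherins were called in any line. The share of all protein-coding genes was not counted under the alternatives, so these counts cannot be set against it. The cause of the changes was not tested. Calls numbered 1, 2, 1, 2 and 0 from the parental line to R4000, 0 genes were called in all 5 lines, and 1 gene was gained, meaning called in R100 or R500 but not parentally. With 1 kb on each side of the TSS, and likewise with 5 kb upstream, parental calls became 0, R1000 calls 1 and gained genes 2. With at least 50 bp covered, R500 calls became 2, R4000 calls 1, genes called in all 5 lines 1 and gained genes 2. With at least 500 bp covered, parental calls became 0, R100 calls 1 and R1000 calls 1. With only peaks at least 500 bp wide, parental calls became 0, R100 calls 1 and R1000 calls 0. With peaks within 1000 bp joined, R4000 calls became 1, genes called in all 5 lines 1 and gained genes 2. Covered bases in protocadherin genes were 250, 1900, 1950, 600 and 100 bp. Wide peaks alone gave 0 parental bp, 1250 bp in R100, and 0 bp in both R1000 and R4000. Joined peaks gave 3007 bp in R100, 1250 bp in R1000 and 1000 bp in R4000, and the parental value stayed at 250 bp. Exons alone gave 296 bp in R500 and 0 bp in the other 4 lists. The 100 bp of R100 in the clusters became 0 with wide peaks, with lists of equal number and in exons. In the clusters 22 of 25 alternative values stayed within the limits. Taking any transcript start, or autosomes alone, moved no value past the limits. No paired analysis was possible because each line has 1 list. Depth is unknown, so a missing peak cannot be told apart from a shallow library.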

Other observations

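Small peaks also lay just beyond the 3′ end of Pcdh1, in a stretch of 400 bp (chr18:38344801-38345200) that the annotation gives to no gene. Covered bases there came to 100, 350, 250, 0 and 0 from the parental line to R4000. Among the genes around the clusters, Hbegf, which encodes a growth factor, lies before them, and Spry4, an inhibitor of receptor tyrosine kinase signalling, lies after them. Hbegf had 100, 450, 1100, 200 and 150 promoter bp covered, and Spry4 had 72, 1400, 750, 300 and 250. These genes were chosen after their values were seen.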
